A study of Mus musculus with 7 samples.

Results

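The 10 genes described here belong to prostaglandin E2 (PGE2) and fever signalling: the 4 PGE2 receptors (Ptger1, Ptger2, Ptger3 and Ptger4), 3 enzymes of PGE2 synthesis (Ptgs1, Ptgs2 and Ptges), and 3 receptor chains for fever-inducing cytokines (Il1r1, Il1rap and Il6st). They were picked by gene symbol and not by a threshold on these data, although earlier results of these data were known when the list was made, and all 10 were present among the 24062 gene symbols counted. Of these, 9 passed the count filter and were among the 14407 genes tested. Ptger3 had too few counts.

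RNA was aspirated through the patch pipette from neurons of the medial preoptic area (MPA) in slices of ERα-ZsGreen mice (strain Esr1-ZsGreen), a reporter line in which cells expressing estrogen receptor α (ERα) fluoresce. The slices were warmed by 5 °C during recording, and neurons were grouped as temperature-responsive (TR) or non-responsive (NR) by the change in their firing. Each sample pooled 2 ZsGreen positive neurons with similar responses, and there were 4 TR and 3 NR samples. The comparison asks whether TR and NR neurons of this population differ in the transcripts of the fever pathway. Both groups carried the same transgene, were ZsGreen positive and were exposed to the same warming, so no sample was left unwarmed. The methods give the mice as females 10 to 14 weeks old, but every sample held at least 684 counts of the Y-linked Ddx3y and no more than 14 of Xist, which is transcribed from the inactive X. All 7 samples went against the stated sex in this way, so it does not separate the groups. No source gives separate animals for the samples, so the p-values measure only the spread between these samples, which may be in part technical.

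PGE2 is the classical mediator of fever. Cytokines released in infection, such as IL-1β and IL-6, act on receptors in the brain and its vessels, where cyclooxygenase-2 (the product of Ptgs2) and a terminal PGE2 synthase (Ptges) are induced, and the PGE2 so formed acts on preoptic neurons. The EP3 receptor, encoded by Ptger3, couples to inhibitory G proteins and is the receptor best known for the febrile response in the preoptic area, whereas EP2 and EP4 (Ptger2 and Ptger4) raise cAMP and EP1 (Ptger1) is linked to calcium.

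The promoters of 3 of the 4 genes that differed between the groups are shown as the sequences before the annotated starts of those transcripts. RefSeq windows (GRCm38.p6) of the 250 bases before each start were found for 9 of the 10 genes, and for Ptger1 no sequence is printed. The Ptgs2 window is chr1:150099781-150100030, the Il1r1 windows, 1 for each of its starts, are chr1:40224830-40225079 and chr1:40266336-40266585, and the Il6st window is chr13:112463820-112464069. All are on the plus strand and written 5′ to 3′. Capitals mark matches on either strand to any of 6 motifs. They are the core of the cAMP response element CGTCA, the repeat unit of the estrogen response element AGGTCA, the inward pair of heat shock units GAANNTTC, the STAT site TTCNNNGAA, the TATA box TATAAA, and the GC box GGGCGG or its reverse complement.
Ptgs2: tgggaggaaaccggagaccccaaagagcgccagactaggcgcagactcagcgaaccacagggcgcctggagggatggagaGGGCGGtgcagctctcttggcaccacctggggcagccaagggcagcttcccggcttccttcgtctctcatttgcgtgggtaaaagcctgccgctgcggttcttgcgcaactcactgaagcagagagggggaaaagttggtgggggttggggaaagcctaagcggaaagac
Il1r1, upstream start: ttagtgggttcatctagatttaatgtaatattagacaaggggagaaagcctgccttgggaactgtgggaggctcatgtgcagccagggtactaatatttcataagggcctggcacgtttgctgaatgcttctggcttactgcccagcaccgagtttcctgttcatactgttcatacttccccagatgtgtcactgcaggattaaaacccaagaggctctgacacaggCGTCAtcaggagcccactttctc
Il1r1, downstream start: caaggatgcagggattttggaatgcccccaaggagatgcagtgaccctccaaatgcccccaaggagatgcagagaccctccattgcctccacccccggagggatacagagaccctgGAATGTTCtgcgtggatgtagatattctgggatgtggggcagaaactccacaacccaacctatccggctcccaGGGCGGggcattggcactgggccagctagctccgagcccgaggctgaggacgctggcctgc
Il6st: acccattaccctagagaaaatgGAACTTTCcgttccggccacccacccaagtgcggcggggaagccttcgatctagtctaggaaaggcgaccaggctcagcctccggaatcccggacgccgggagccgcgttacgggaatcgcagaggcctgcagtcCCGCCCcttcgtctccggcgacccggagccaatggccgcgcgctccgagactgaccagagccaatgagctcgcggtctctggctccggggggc
The Ptgs2 window held 1 GC box, 170 bases before the start. The upstream Il1r1 window held CGTCA 23 bases before its start, and the downstream one held GAATGTTC 134 bases and a GC box 61 bases before its start. The Il6st window held GAACTTTC 228 bases and a GC box in reverse complement 93 bases before the start. The matches in these windows did not overlap each other. Among all 32851 mouse windows of this length, 17.8% held CGTCA, 6.69% GAANNTTC and 32.7% a GC box, so these letters are common. AGGTCA (14.02% of all windows), TTCNNNGAA (7.02%) and TATAAA (12.4%) had no match in the 10 windows, which cover 9 of the genes and not Ptger1. A match is a run of letters and not a measured binding site. The starts used in these samples were not measured, and bases outside the windows were not searched, so a motif there would be missed.

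Totals lay between 1914497 and 2814360 counts in the TR samples and between 3309361 and 5125280 in the NR samples, and 19852 to 21177 genes had at least 1 count in TR samples against 17818 to 19820 in NR samples. Depth and gene number thus moved with the group. Levels are given as CPM, counts scaled to the library size after TMM normalization. A count of 3, taken as the least that counts as detection, equals 1.05 to 1.62 CPM in TR samples and 0.564 to 0.899 CPM in NR samples. Transcripts of 1092 olfactory receptor genes, which preoptic neurons are not known to need, summed per kilobase to 0.0968 to 0.229 CPM in TR samples and 0.0126 to 0.0703 CPM in NR samples, without overlap. All 5 neuronal markers were present in every sample, and Esr1, which encodes ERα itself, had 10 to 27 counts. The samples also held transcripts of other cell types. Summed endothelial markers reached 93.5 to 315 CPM in TR samples and 17.8 to 64.4 CPM in NR samples, and their values are set beside the genes below where they bear on them. In pooled samples such as these, fewer cells of a type and less RNA per cell cannot be told apart.

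Compared per kilobase of exon and averaged over the 7 samples, the cyclooxygenases Ptgs1 (7.33 ± 1.31 CPM per kb, SD, n = 7) and Ptgs2 (7.22 ± 2.06) and the interleukin-1 receptor accessory chain Il1rap (6.39 ± 1.57) had the highest levels, and their order among themselves changed from sample to sample. Ptgs1 was above Ptgs2 in 3 of 7 samples, and Ptgs2 above Il1rap in 4. The shared interleukin-6 receptor subunit Il6st followed at 4.44 ± 0.883 CPM per kb and was above every PGE2 receptor in all 7 samples. The lower 6 genes lay close together, with Ptger1 at 1.42 ± 0.545, Ptger4 at 1.33 ± 0.413, Il1r1 at 0.980 ± 0.393, Ptges at 0.795 ± 0.389, Ptger2 at 0.693 ± 0.181 and Ptger3 at 0.472 ± 0.273 CPM per kb. Each of these was above the next in 4 to 6 of 7 samples, so no neighbours among them had a fixed order. Ptger3, the receptor best known in fever, was thus the lowest of the 10, at 3.00 to 17.8 times the olfactory receptor level of the same sample. Ptges came nearer to that level, at 1.79 times in its lowest sample. The lowest ratio in any sample was 15.2 for Il6st, 25.9 for Il1rap, 32.1 for Ptgs1 and 45.7 for Ptgs2.

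**Figure D1:**
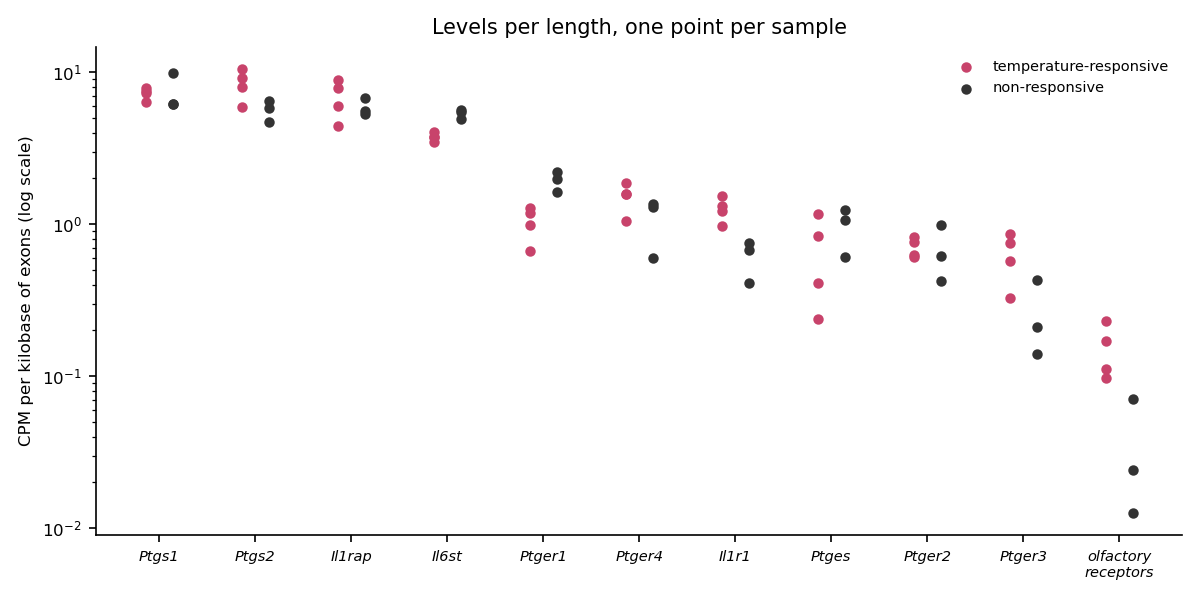
Levels of the 10 genes in CPM per kb of exon (vertical axis, log scale), 1 point per TR or NR sample, ordered from the highest mean to the lowest, with the summed olfactory receptor genes at the right. Ptgs1, Ptgs2 and Il1rap share the top, and Ptger3 is lowest at a mean of 0.472 CPM per kb.

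Between the groups, 4 of the 9 genes tested passed an adjusted p of 0.05 (quasi-likelihood test of edgeR, with adjustment by Benjamini-Hochberg over all 14407 genes). Ptgs2 and Il1r1 were higher in TR neurons, and Ptger1 and Il6st were lower. Across all genes tested 30.0% passed, 15.1% higher and 14.9% lower in TR neurons, so a count of 4 of 9 is not read as particular to the fever pathway. TR and NR values were fully separated for 3 of these 9 (Ptger1, Il1r1 and Il6st), against 35.4% of all genes. With DESeq2 the adjusted p of Ptgs2 and Il6st passed and those of Ptger1 (0.0651) and Il1r1 (0.0515) did not, where 26.4% of all genes passed. The median log2 fold change of all genes tested was 0.0070.

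**Figure D2:**
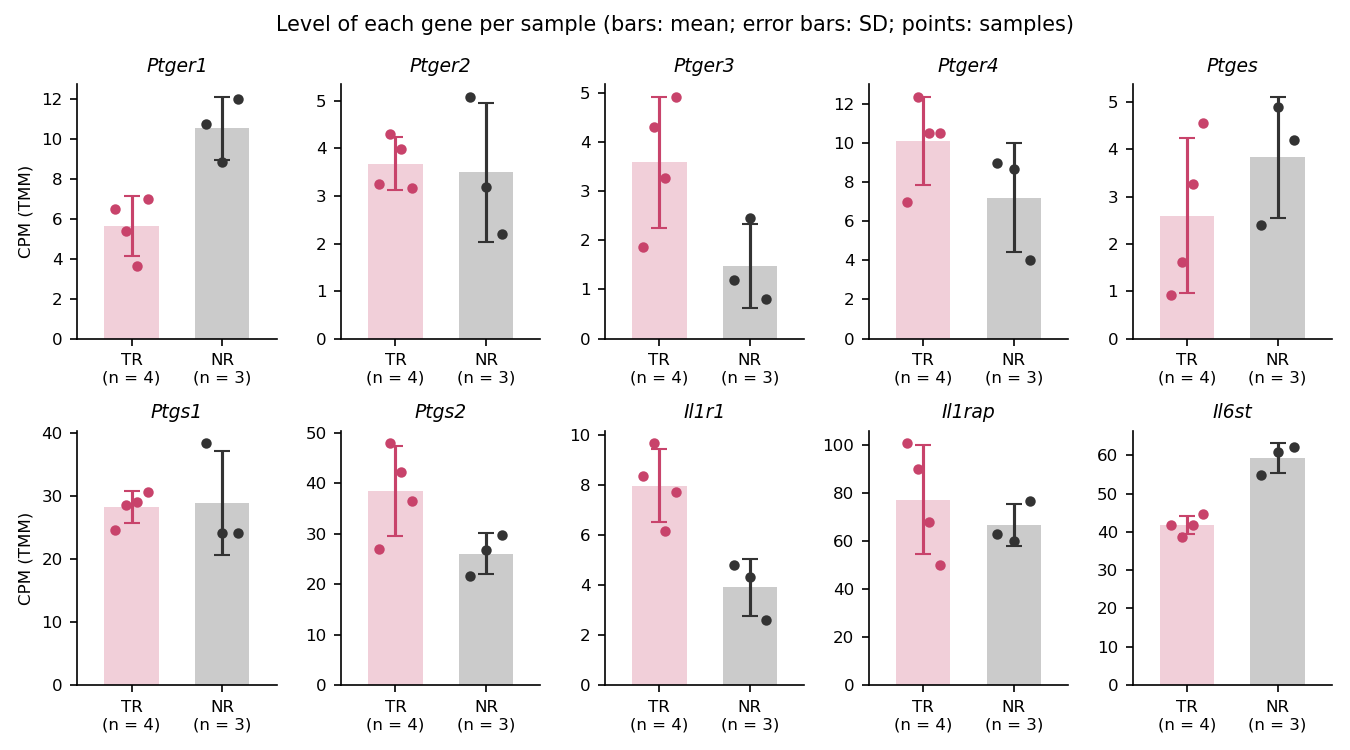
CPM of the 10 genes in each TR sample and each NR sample (points, vertical axes in CPM), with bars for the group mean and error bars for the SD. The TR and NR points do not overlap for Ptger1, Il1r1 and Il6st, and for Ptgs2 the lowest TR sample (26.9 CPM) lies among the NR samples.

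Among the receptors for PGE2, Ptger1 was lower in TR neurons. Its level was 6.50, 5.38, 3.63 and 7.03 CPM in TR samples 1 to 4 (10 to 20 counts) and 10.8, 8.84 and 12.01 CPM in NR samples 1 to 3 (36 to 60 counts). Every TR sample was below every NR sample, with means of 5.64 ± 1.503 (SD, n = 4) and 10.5 ± 1.597 CPM (SD, n = 3). The fitted log2 fold change was -0.90 (SE 0.317, 95% interval -1.55 to -0.25, adjusted p = 0.0344 by edgeR's quasi-likelihood test). The genes tested were divided into 10 equal bands by expression, and in the band that holds Ptger1, 1.67% were called lower and 11.4% higher in TR neurons. Ptger1 (chromosome 8, 83666678 to 83672753, plus strand, mm10) has 71.0% of its exonic bases in common with annotation on the opposite strand. The library kit does not mark strand, so reads in those bases cannot be assigned, and how the counting treated them is not stated in the sources used here. The Ptger1 difference is uncertain to that extent.

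Ptger4, the cAMP-raising receptor EP4, had 6.97, 12.4, 10.5 and 10.5 CPM in TR samples and 8.99, 8.65 and 4.00 CPM in NR samples. Samples of both groups interleave, since TR 1 was below NR 1 and NR 2. Its log2 fold change was 0.50 (SE 0.329, 95% interval -0.18 to 1.18, adjusted p = 0.262 by edgeR's quasi-likelihood test), an interval that includes 0 as well as a rise larger than that of Ptgs2. Genes on the opposite strand, mostly the pseudogene Gm15937, cover 16.5% of the exonic bases of Ptger4.

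Ptger2, the other cAMP-raising receptor, averaged 3.68 ± 0.561 CPM in TR samples (SD, n = 4) and 3.50 ± 1.47 CPM in NR samples (SD, n = 3). It had 3.25, 4.31, 3.99 and 3.16 CPM in TR samples and 5.09, 3.20 and 2.20 CPM in NR samples, and the TR values lay inside the range of the NR values. The log2 fold change of Ptger2 was 0.10 (SE 0.477, 95% interval -0.88 to 1.08), and the adjusted p was 0.896 by edgeR's quasi-likelihood test. The counts were 7 to 17 per sample, and the interval is correspondingly wide.

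Ptger3, which encodes EP3, had 4, 8, 9 and 14 counts in TR samples and 4, 13 and 4 in NR samples. This gave 1.86, 4.31, 3.27 and 4.92 CPM against 1.20, 2.45 and 0.801 CPM. It was detected in all 7 samples, TR 1 lay between the NR samples, and the group means were 3.59 ± 1.34 (SD, n = 4) and 1.48 ± 0.858 CPM (SD, n = 3). The difference did not reach the threshold in a two-sided exact permutation test of log2 CPM (p = 0.0857), for which the smallest possible p with 4 and 3 samples is 0.0286. With every gene of at least 1 count in the edgeR fit, the log2 fold change of Ptger3 was 1.14 (SE 0.633) with an adjusted p of 0.173. Ptger3 was in no expression band because it was under the filter. The lowest band had a median log2 fold change of 0.62, so the Ptger3 difference is not read as particular to that gene.

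The summed counts of the 4 receptors were 40, 49, 59 and 73 in TR samples and 87, 123 and 95 in NR samples, and their summed level overlapped, at 18.6 to 26.4 CPM in TR samples and 19.0 to 26.1 CPM in NR samples. Within this sum, Ptger4 had the largest mean share in TR samples (43.7% ± 5.34, SD, n = 4) and Ptger1 in NR samples (47.6% ± 13.6, SD, n = 3). The share of Ptger1 was 16.9% to 35% in TR samples and 38.2% to 63.2% in NR samples. Ptger4 took 37.5% to 49.2% and 21.1% to 37.4%, and Ptger3 10% to 19.2% and 4.21% to 10.6%. Per kilobase the picture was alike, with Ptger1 at 26.9% ± 8.33 of the receptor signal in TR samples and 49.96% ± 13.4 in NR samples. These shares add up to a fixed total and so move against each other, and the limit on Ptger1 applies to them.

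Among the synthesis genes, Ptgs2 was higher in TR neurons. This inducible cyclooxygenase is also expressed in neurons as an immediate-early gene that follows synaptic activity. Its level was 26.9, 47.9, 42.1 and 36.5 CPM in TR samples (58 to 116 counts) and 21.6, 26.7 and 29.6 CPM in NR samples (72 to 148 counts). TR 2, TR 3 and TR 4 were above every NR sample, and TR 1 lay between NR 2 and NR 3. Its log2 fold change was 0.55 (SE 0.184, 95% interval 0.17 to 0.93, adjusted p = 0.0264 by edgeR's quasi-likelihood test). In the expression band that holds Ptgs2, 7.91% of genes were called higher and 17.4% lower. The exons of Ptgs2 (chromosome 1, 150100031 to 150108227, plus strand) have a GC content of 40.0%, the lowest of the 10 genes, and with an offset for GC content its log2 fold change was 0.24 (adjusted p = 0.361).

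Ptgs1, the constitutive cyclooxygenase, had similar group means, 28.2 ± 2.53 CPM (SD, n = 4) in TR and 28.8 ± 8.25 CPM (SD, n = 3) in NR samples. It had 24.6, 28.5, 29.0 and 30.6 CPM in TR samples and 38.3, 24.1 and 24.0 CPM in NR samples, the highest and the lowest values both being NR. The log2 fold change was -0.0069 (SE 0.189, 95% interval -0.40 to 0.38, adjusted p = 0.983 by edgeR's quasi-likelihood test).

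Ptges, the inducible synthase that completes PGE2, was near the floor. It had 2, 3, 9 and 13 counts in TR samples (0.929, 1.62, 3.27 and 4.57 CPM) and 8, 26 and 21 counts in NR samples (2.40, 4.89 and 4.203 CPM), reaching 3 counts in 3 of 4 TR samples and in all NR samples. The log2 fold change of -0.51 (SE 0.519, 95% interval -1.58 to 0.56) did not pass (adjusted p = 0.480 by edgeR's quasi-likelihood test).

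Among the cytokine receptor chains, Il6st and Il1r1 differed in opposite directions. Il6st encodes gp130, the signalling subunit shared by receptors of the interleukin-6 family, and had 41.8, 38.8, 41.7 and 44.6 CPM in TR samples (72 to 127 counts) and 54.8, 60.8 and 62.2 CPM in NR samples (183 to 323 counts). The gap between the highest TR and the lowest NR sample was wider than the range within either group, with means of 41.7 ± 2.39 (SD, n = 4) and 59.3 ± 3.93 CPM (SD, n = 3). This gave a log2 fold change of -0.50 (SE 0.133, 95% interval -0.78 to -0.23, adjusted p = 0.00648 by edgeR's quasi-likelihood test), or 0.705 of the NR level. In its expression band, 24.9% of genes were called lower and 8.61% higher. No exonic base of Il6st (chromosome 13, 112464070 to 112510086, plus strand) is shared with another gene.

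Il1r1 encodes the signalling receptor for interleukin-1 and is known for its expression in brain endothelium as well as in some neurons. Its level was 8.36, 9.69, 6.17 and 7.73 CPM in TR samples (17 to 22 counts) and 4.79, 4.33 and 2.602 CPM in NR samples (13 to 23 counts). All TR samples were above all NR samples, with means of 7.99 ± 1.46 (SD, n = 4) and 3.91 ± 1.15 CPM (SD, n = 3). In the fit the log2 fold change was 1.03 (SE 0.384, 95% interval 0.24 to 1.82, adjusted p = 0.0447 by edgeR's quasi-likelihood test), a 2.04-fold difference. After thinning to the lowest total it was 1.78 (adjusted p = 0.0136), and with the GC offset 0.83 (adjusted p = 0.107). Thinning lowered the NR counts most, and how many NR samples still reached 10 counts is not given here. The thinned p is therefore not read as support. In the expression band of Il1r1, the same as that of Ptger1, 11.4% of genes were called higher in TR neurons. Endothelial markers moved the same way. All 5 were tested, 2 (Cldn5 and Pecam1) were called higher, none was at 0 in any sample, and their summed level was 183, 107, 315 and 93.5 CPM in TR samples 1 to 4 against 64.4, 61.5 and 17.8 CPM in NR samples 1 to 3. The TR sample with the most endothelial signal, TR 3, had the lowest Il1r1 of the TR samples, and NR 3 had the lowest of both. All 5 pericyte markers were also called higher, against 15.1% of all genes tested. Their summed level was 93.5 to 192 CPM in TR samples and 54.4 to 69.2 CPM in NR samples. The part of these cells in the Il1r1 difference was not tested.

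Il1rap, the accessory chain that Il1r1 needs to signal, varied more among TR samples than among NR samples. It had 101, 89.9, 67.9 and 49.9 CPM in TR samples and 62.9, 60.2 and 76.9 CPM in NR samples, so that TR samples were both the highest and the lowest. Il1rap had a log2 fold change of 0.19 (SE 0.181, 95% interval -0.19 to 0.57, adjusted p = 0.458 by edgeR's quasi-likelihood test).

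**Figure D3:**
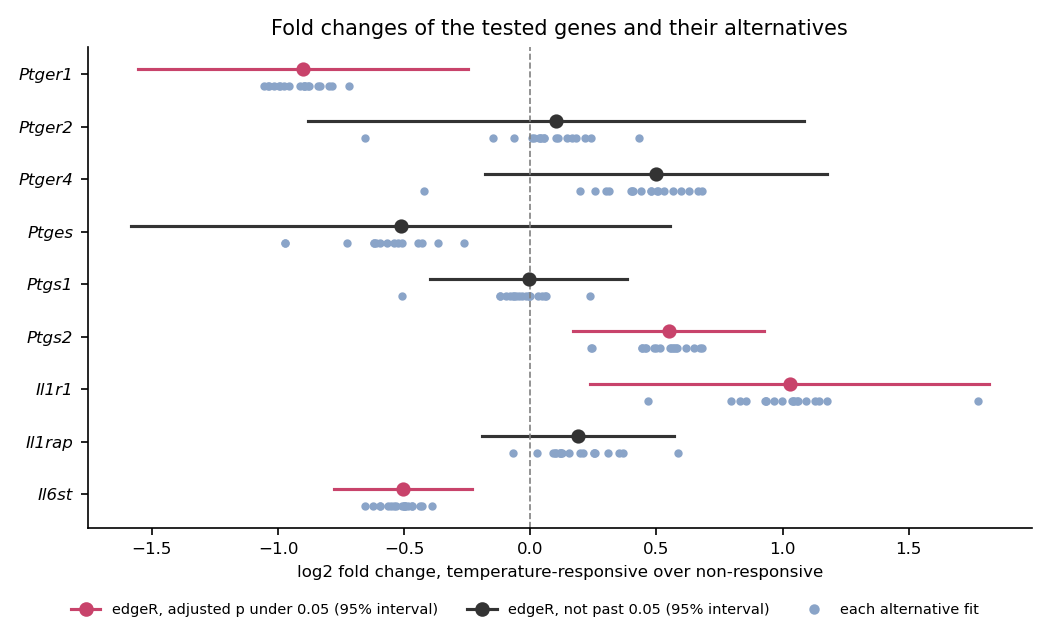
Log2 fold change of TR over NR with its 95% interval for the 9 genes tested (horizontal axis, log2 scale), coloured by whether the adjusted p was under 0.05, with the value of each alternative fit as small points beneath. Il1r1 and Ptgs2 lie above 0, Ptger1 and Il6st below 0, and the other 5 intervals include 0.

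Of the 4 calls, only that of Il6st remained when any of the 7 samples was left out. Ptger1 lost its call without TR 2, TR 3, NR 1 or NR 3 (adjusted p by edgeR up to 0.129), Ptgs2 without TR 2, TR 3, NR 1 or NR 2 (up to 0.109), and Il1r1 without TR 1, TR 2, TR 4, NR 2 or NR 3 (up to 0.166). All 4 kept their direction in each case. After thinning to the lowest total, Il6st was not called (log2 fold change -0.43, adjusted p = 0.0572 by edgeR). With a covariate for the number of genes detected, which differs between the groups, none of the 9 was called. Only 1 had an unadjusted p under 0.05, and this was Il1rap, which had no call in the main fit. The log2 fold change of Il1r1 was 0.47 with this covariate.

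Ratios between partner genes, 5 of them chosen after the values were seen, are given as a description with no test. The interleukin-1 receptor to accessory chain ratio, Il1r1 to Il1rap counts, was 0.0829 to 0.155 in TR samples and 0.0339 to 0.0762 in NR samples. Ptger4 counts were 1.07 to 2.90 times those of Ptger1 in TR samples and 0.333 to 0.979 times in NR samples. The inducible to constitutive cyclooxygenase ratio, Ptgs2 to Ptgs1, overlapped, at 1.09 to 1.68 and 0.5625 to 1.23. Il6st pairs with ligand-binding partners, of which Lifr binds leukemia inhibitory factor and Osmr oncostatin M. Osmr counts per Il6st count were 0.378, 0.708, 0.678 and 0.433 in TR samples and 0.142, 0.102 and 0.0868 in NR samples, the widest gap of the 5 ratios. The summed endothelial and pericyte markers were also higher in TR samples, and their part in this ratio was not tested. Il6st counts per Lifr count were 0.326 to 0.525 in TR samples and 0.665 to 0.879 in NR samples.

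**Figure D4:**
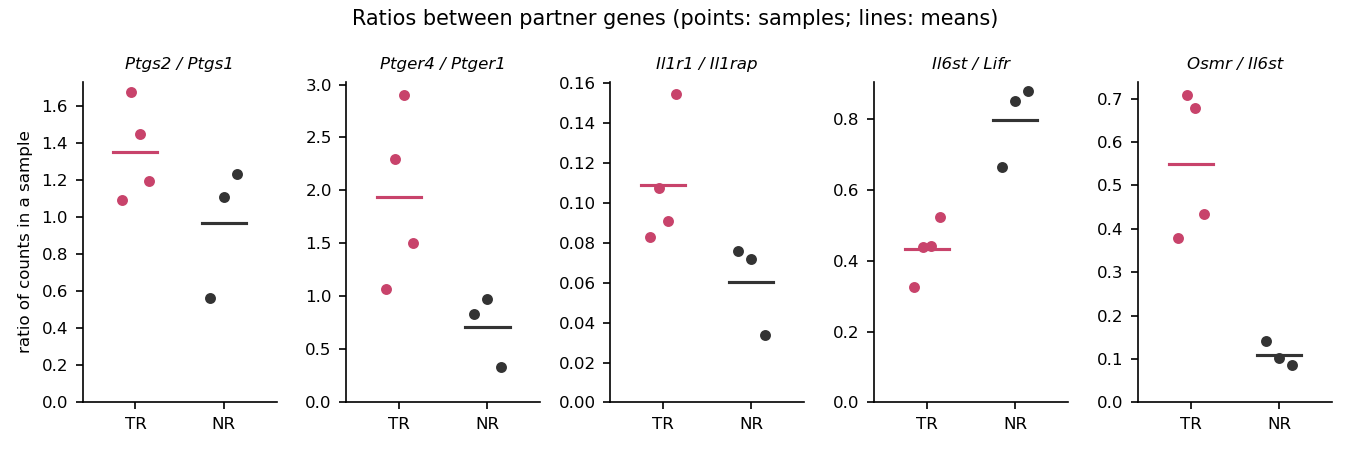
Ratios of counts between 5 pairs of partner genes (vertical axes, count per count), with points for TR and NR samples and lines for group means. TR and NR samples do not overlap in 4 pairs and overlap for Ptgs2 to Ptgs1.

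The rest of the pathway was followed in 5 lists with 66 further genes in the files, of which 55 were tested. In them 9 were higher and 6 lower in TR neurons (edgeR's quasi-likelihood test), against the 30.0% of all genes, and their median log2 fold change was -0.013. Among 9 other genes of PGE2 synthesis, transport and breakdown, 2 rose and 3 fell (median 0.16). Those that rose were Pla2g4a, the phospholipase that releases arachidonic acid, with a log2 fold change of 1.16 (adjusted p = 0.00146), and Ptges3, a cytosolic PGE2 synthase that is also an Hsp90 co-chaperone, with 0.89 (adjusted p = 6.59e-05). Pla2g4a had 15.8 to 26.9 CPM in TR samples and 7.21 to 10.5 CPM in NR samples. The 3 that fell were Mgll, the lipase that supplies brain arachidonic acid from 2-arachidonoylglycerol (-0.67, adjusted p = 0.000196), Ptges2, a further synthase (-0.48, adjusted p = 0.0250), and Cbr1, a carbonyl reductase that acts on PGE2 (-0.80, adjusted p = 0.000196). Mgll ranged from 78.6 to 103 CPM in TR samples and from 130 to 151 CPM in NR samples. The 3 terminal PGE2 synthases thus included 1 that rose, 1 that fell and 1, Ptges, that did not pass.

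Of 9 other prostanoid synthases and receptors in the files, 4 were tested and 2 rose, with none called lower. Of all genes tested, 15.1% rose and 14.9% fell. Ptgds, the prostaglandin D2 synthase that is abundant in glia and meninges, was at 417 to 561 CPM in TR samples and 257 to 388 CPM in NR samples (log2 fold change 0.69, adjusted p = 0.00104 by edgeR). The thromboxane receptor Tbxa2r rose by 2.07 on the log2 scale (adjusted p = 0.00858) on at most 16 counts per sample. No NR sample had more than 6 counts, so Tbxa2r passed the filter of 10 counts only through the TR samples, where it was high, and its p is not read as support. Hpgds, the haematopoietic form of the prostaglandin D2 synthase, did not pass (-0.11, adjusted p = 0.726).

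Of the 8 pyrogens and their antagonist, 4 were tested and 1 rose, where 15.1% of all genes tested rose. Il6, the ligand whose signal passes through Il6st, had 4, 18, 10 and 13 counts in TR samples and 8, 9 and 4 in NR samples. These overlap in counts and in CPM, and the log2 fold change was 1.59 (adjusted p = 0.0431 by edgeR). No NR sample reached 10 counts, so Il6 too passed the filter only through the TR samples and its p is not read as support. Its call was kept in 7 of the 15 alternatives that tested it. Il1a, a ligand of Il1r1, had 256 to 319 counts in TR samples and 312 to 775 in NR samples, or 111 to 138 and 93.5 to 146 CPM, with a log2 fold change of 0.027 (adjusted p = 0.894). Its mean over the 7 samples was 60.6 CPM per kb, above that of each of the 10 genes. The samples also held transcripts of other cell types, and which cells gave the Il1a counts was not tested. Gm14023, on the opposite strand, covers 11.2% of the exonic bases of Il1a. Tnf did not pass (-0.32, adjusted p = 0.330). Il1b had 2 to 15 counts and was not tested.

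Of 17 other pyrogen receptors, 15 were tested, 4 rose and 1 fell (median log2 fold change 0.38). The shares of all genes tested were 15.1% and 14.9%. Osmr had 15.8, 27.5, 28.3 and 19.3 CPM in TR samples and 7.79, 6.21 and 5.40 CPM in NR samples. The lowest TR sample was above the highest NR sample, and the log2 fold change was 1.83 (adjusted p = 9.73e-05 by edgeR). Endothelial and pericyte markers, with median log2 fold changes of 1.95 and 1.03, were also higher in TR samples. Their part in the Osmr difference was not tested. Lifr rose by less than Osmr (0.40, adjusted p = 0.0209), and Cntfr, the chain for ciliary neurotrophic factor, fell (-0.41, adjusted p = 0.0377). The calls of Lifr and Cntfr were kept in 10 and 8 of 19 alternatives, and with DESeq2 the adjusted p of Cntfr was 0.0747. These 3 receptors use Il6st, which was itself lower in TR neurons. Ly96, the lipopolysaccharide co-receptor MD-2, rose (1.21, adjusted p = 0.00931), as did Tnfrsf11a, the receptor for RANK ligand (0.98, adjusted p = 0.0260). Ifngr2, a chain of the interferon-gamma receptor, did not pass (-0.16, adjusted p = 0.425).

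Downstream of the receptors, all 23 genes of cytokine signal transduction were tested and 2 passed, both lower in TR neurons. Of all genes tested, 15.1% were called higher and 14.9% lower, so 2 of 23 is not read as particular to this list. Tollip, which restrains interleukin-1 and Toll-like receptor signals, fell by 0.36 on the log2 scale (adjusted p = 0.00939 by edgeR). Socs3, the feedback inhibitor induced through Il6st, had -0.52 (adjusted p = 0.0483), with groups that overlapped, and kept its call in 9 of 19 alternatives. The kinase Jak1 (0.058, adjusted p = 0.664) and the NF-κB inhibitor Nfkbia (0.094, adjusted p = 0.580) did not pass. Microglial markers, the cells in which many of these genes are studied, had a summed level of 271 to 306 CPM in TR samples and 304 to 324 CPM in NR samples, with 1 of 5 higher (P2ry12) and 1 lower (Csf1r). Perivascular macrophage markers had 16.3 to 23.2 CPM in TR samples and 5.80 to 13.2 CPM in NR samples, with Cd209f at 0 in NR 2, and of the 2 of 5 that were tested Mrc1 was called higher. Astrocyte markers had 1083 to 1261 and 876 to 1068 CPM, with 2 of 5 higher (Slc1a3 and Gja1) and 1 lower (Gfap). The part of these cells in the differences above was not tested.

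**Figure D5:**
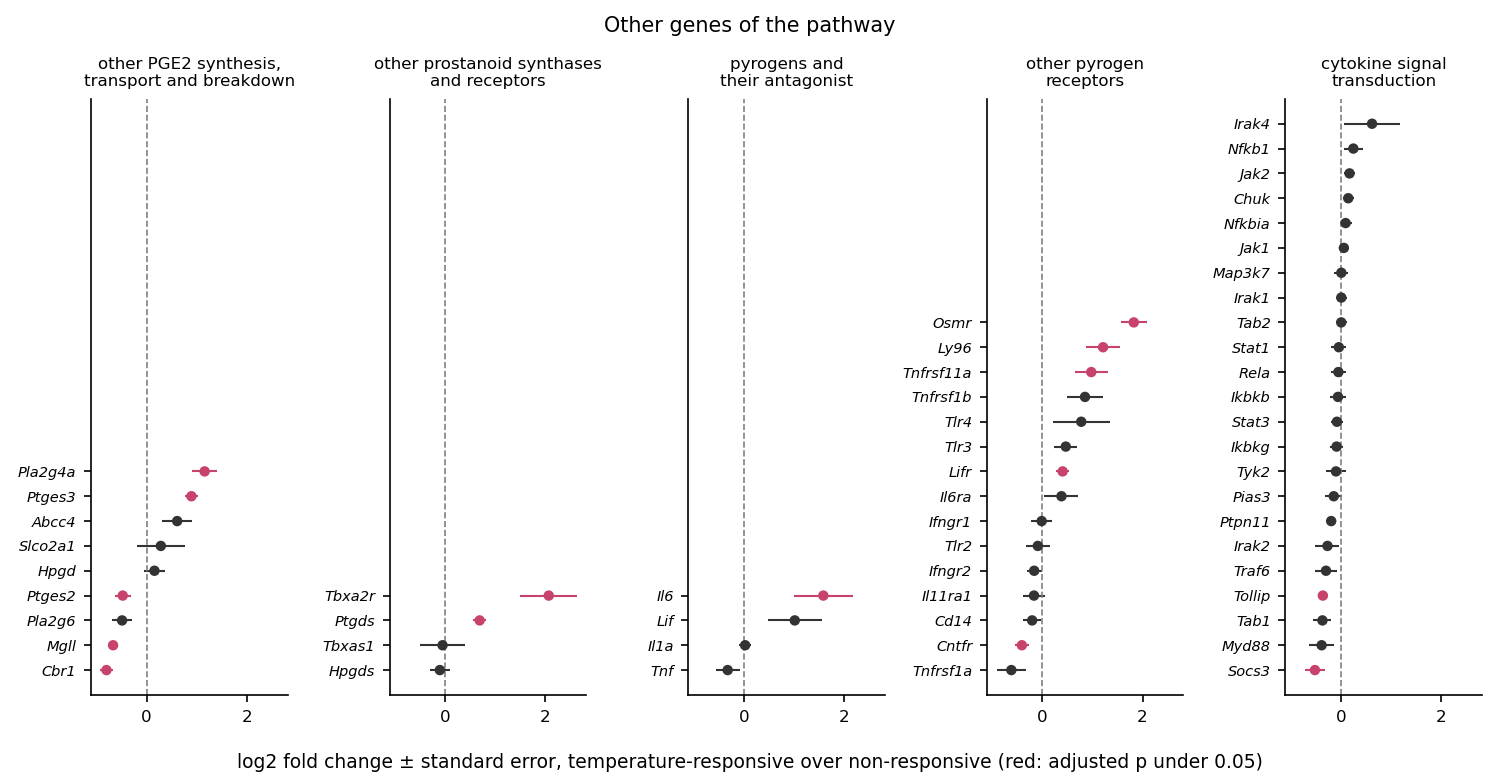
Log2 fold change of TR over NR (horizontal axis, log2 scale) with its standard error for every tested gene in the 5 further pathway lists, with called genes in red. Calls lie on both sides of 0 in the PGE2 synthesis and pyrogen receptor lists, and both calls of the signalling list lie below 0. Of all genes tested, 15.1% were called higher and 14.9% lower.

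The genes whose level most resembled each of the 10 genes over the 7 samples were found by Pearson's r of log2 CPM, which is given as a description, since the points share depth and group. Il1r1 was most like Rfk (r = 0.995) and Galnt4 (r = 0.993), and 222 genes had an r above 0.95. Il6st was most like Dcakd and Flad1 (both r = 0.997), among 355 genes above 0.95. For Ptger1 the nearest were AI854703 (r = 0.984) and Ing3 (r = 0.981), and for Ptgs2 Cdc42ep5 (r = 0.975) and Slc8b1 (r = 0.962). Ptger4 was nearest to Mctp2 (r = 0.996) and Frzb (r = 0.991), and Ptger2 to Fkbp5 (r = 0.979) and Dkk2 (r = 0.958). Ptgs1 was nearest to Rbmxl1 (r = 0.975) and Ak4 (r = 0.946), Ptges to Enkd1 (r = 0.999) and Rad52 (r = 0.983), and Il1rap to Lamp1 (r = 0.984) and Ctsb (r = 0.958). Ptger3 was nearest to Tatdn1 (r = 0.984) and Slc26a10 (r = 0.982).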

How the data were processed

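RNA was amplified with a SMART-seq V4 kit and made into Nextera XT libraries, neither of which marks strand. The authors aligned reads to mm10 with STAR 2.6.0, removed duplicates with RmDup and deposited unnormalized htseq-count (HTSeq 0.9.1) counts per gene symbol. Without molecular identifiers this can discard true molecules of abundant genes. The annotation, strand setting and rule for overlapping genes are not given in the sources used here. Genes reaching 10 counts in 3 or more samples entered the main test of the deposited counts, in edgeR 4.0.16 (robust quasi-likelihood, TMM, two-sided, Benjamini-Hochberg threshold 0.05, R 4.3.3), without covariates and with the groups taken from the labels. Standard errors were derived from the F statistic. The fit was tested on simulated data. CPM used TMM library sizes and the correlations log2 CPM with a prior count of 2. DESeq2 1.42.0 and limma 3.58.1 were alternatives, beside other normalizations, filters, thinning, covariates, offsets (mgcv 1.9.3), the replicate block and leaving out each sample. GENCODE M21, on mm10, gave loci, exonic lengths and GC content. Samples of a group differed beyond sampling noise (over 12220 genes, chi-square was 1.94 to 5.36 times its degrees of freedom). This does not show that they came from separate animals or separate RNA. Each was counted as 1 sample.

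The members and lists were chosen with earlier results of these data known. Named were all 10 genes, pathway genes past the threshold (at most the 4 lowest adjusted p per direction and list), the 2 genes with the most counts in each pathway list, and the 2 genes most like each member. The ratios, Il1b and the genes under the count filter were chosen after their values were seen. 1 gene is not reported here.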

Additional observations from a re-analysis of the deposited data

How the results depend on the processing

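The 4 genes called were 2 with DESeq2, 2 with library size only, 2 of 7 tested after thinning to the lowest total, 2 with an exonic length offset, 1 with a GC content offset, and 0 with a covariate for the number of genes detected, a setting that leaves 1 call among all genes. The calls after thinning were Ptgs2 and Il1r1, and the p of Il1r1 there is not read as support. Leaving out single samples gave 1 to 3, and without TR 2 only Il6st was called. The replicate numbers do not pair the samples: the mean correlation of deviations was -0.053 for the same number and 0.017 for different numbers. With the replicate block 3 were called (Il1r1 had an adjusted p of 0.0889 by edgeR), and with the block and a GC offset 1. The 15 calls among other pathway genes became 8 after thinning, 8 with the block and GC offset and 0 with the covariate (10 at an unadjusted p under 0.05), 12 with the replicate block, and 10 to 18 when single samples were left out. Ptger1, Ptgs2, Il1r1 and Il6st kept their direction in all 19 alternatives and their call in 9, 10, 6 and 17 of them. Osmr, Pla2g4a, Mgll, Ptges3, Cbr1 and Ptgds lost theirs only with the covariate. Others were less stable: of 19 alternatives Tollip kept its call in 17, Ly96 in 16, Ptges2 in 14, Tnfrsf11a in 12, Lifr in 10, Socs3 in 9 and Cntfr in 8, and of 15 Tbxa2r kept it in 13 and Il6 in 7. Reversals concerned genes without a call, except Il6. The log2 fold change of Ptgs1 became 0.063 with limma-voom, 0.000075 with RLE, 0.059 with the upper quartile and 0.030 after thinning, and ranged from -0.12 to 0.23 without single samples. That of Il1a became -0.036 scaled by library size only, -0.067 when all genes were fitted, -0.24 with the GC offset, -0.19 with the block and GC offset and -0.015 with the length offset, and -0.10 to 0.22 without single samples. Jak1 gave -0.00097, -0.034, -0.056, -0.058 and -0.040 in those 5 settings. With the covariate Ptger2 was -0.66, Ptger4 -0.42 and Il6 -0.25, and with the GC offset Ptger2 was -0.067 and Il1rap -0.069. Hpgds became 0.047 after thinning. Without single samples Hpgds ranged from -0.31 to 0.11, Ptger2 from -0.15 to 0.43 and Nfkbia from -0.016 to 0.20. The causes were not tested. Including all genes with at least 1 count moved the median of all genes to 0.17. Depth limits Ptger2, Ptger3 and Ptges most.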

Other observations

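Several low genes of the pathway were under the count filter, and are given as counts with no test, chosen after their values were seen. Sigirr, a decoy-like inhibitor of interleukin-1 receptor signalling, had 9, 8, 9 and 14 counts in TR samples 1 to 4 and 5, 3 and 0 in NR samples 1 to 3. Every TR sample was above every NR sample although its total was lower. Il1rn, the secreted antagonist of Il1r1, had 2, 9, 5 and 10 counts in TR samples and 1, 0 and 2 in NR samples. Ptgir, the prostacyclin receptor, had 3, 9, 5 and 7 counts in TR samples and 3, 0 and 0 in NR samples. In the lowest expression band of the genes tested, 19.8% were called higher and 0.208% lower in TR neurons. A lean to TR is thus not read as particular to Sigirr, Il1rn or Ptgir. Counts of 3 or fewer are at the detection floor, and the olfactory receptor transcripts given in the report were higher in TR samples as well. Their part in these low counts was not tested.

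Ptgdr, the prostaglandin D2 receptor, had 19 counts in NR 2 and 2 to 7 counts in each of the other 6 samples. Il1r2, the decoy receptor for interleukin-1, had 2 to 7 counts in TR samples and 6 to 13 in NR samples. At the depth of each sample this was 1.05 to 3.25 CPM in TR samples and 1.80 to 2.45 CPM in NR samples, which overlap.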
